A study of Homo sapiens with 12 samples.

Results

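DNA replication and S phase were followed through 36 genes named by symbol, all found among the 38611 genes of each deposited table. They cover the loading of the replicative helicase onto origins, its activation, the polymerases, the sliding clamp, the supply of nucleotides, the packing of new DNA into chromatin and the cyclin E and E2F switch. RNA was sequenced from 2 human prostate cancer cell lines, PC3, derived from a bone metastasis, and DU145, derived from a brain metastasis. Each was present as a subline selected for resistance to docetaxel, a taxane that stabilises microtubules, and as its parental line. The 4 groups were resistant PC3, parental PC3, resistant DU145 and parental DU145, with 3 libraries each. Per the series design, docetaxel started at 0.5 for PC3 and 10 for DU145 and was stepped up to a half-maximal inhibitory concentration of 15 for PC3 and 1800 for DU145, in a unit the submitters write as nm/ml. Each resistant group is a single subline, and the labels do not say whether it is a clone or whether drug was present at harvest. They also leave unsaid whether the 3 libraries are separate cultures, and the p-values reflect the spread among these libraries alone, which may be no more than technical.

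Before a cell copies its DNA, the origin recognition complex, CDC6 and CDT1 load the ring-shaped MCM helicase onto origins, a step called licensing. In S phase the kinase CDC7 and cyclin E with CDK2 help to switch the rings on, CDC45 and the GINS complex join them, and the polymerases follow with PCNA as their clamp. Many of these genes are transcribed late in G1 by the E2F factors, which RB1 holds back until cyclin-dependent kinases release them, so their transcripts are widely used as marks of cells that cycle.

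Library totals lay between 62513103 and 72530254 counts. Resistant PC3 library 1 lay apart from its group. Its chi-square per gene was 37.1 and 37.2 to the others of resistant PC3, which were 17.9 apart, and all remaining pairs within a group gave 14.2 to 20.7. Member calls that were lost or gained without it are named beside the results. CTNNA1, the alpha-catenin gene of which PC3 is known to lack a working copy, was at most 3.45 CPM (counts per 1e6) in every PC3 library and at least 372.0 CPM in every DU145 library, and the epithelial keratins KRT8 and KRT18 were present in all 12. Summed over 7 fibroblast markers, levels were 14.2 to 20.7 CPM in resistant PC3, 126 to 136 in parental PC3, 5.67 to 11.5 in resistant DU145 and 23.6 to 41.6 in parental DU145. The 5 endothelial markers summed to 53.8 to 76.8 CPM in resistant PC3, 177 to 232 in parental PC3, 0.904 to 1.5 in resistant DU145 and 0.246 to 1.37 in parental DU145, most of it KDR in PC3, with VWF and CDH5 at or near 0. The 4 endothelial markers that passed the count filter moved in both directions in resistant against parental PC3 (log2 changes from -2.13 to 6.97). The 6 leukocyte markers summed to 75.2 to 87.1 CPM in resistant PC3, 45.0 to 60.0 in parental PC3, 19.8 to 39.1 in resistant DU145 and 16.0 to 19.6 in parental DU145, nearly all of it CD68, with the defining markers PTPRC and CD3E at or near 0. The part of these markers in the results below was not tested.

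In resistant PC3 almost the whole replication programme stood higher than in parental PC3. By edgeR's quasi-likelihood test, with a call at an adjusted p under 0.05 over the 24128 genes tested, 34 of the 36 members were higher, 1 was lower and 1 was not called. Of all genes tested, 22.4% were higher and 21.6% lower in the same comparison. The median log2 change of the members was 0.69, against 0.00 for all genes tested. For 34 members every resistant PC3 library lay above every parental PC3 library, and for 1 every resistant library lay below, where 27.2% of all genes did each. Together the members supplied 0.339% ± 0.0079 of counts in resistant PC3 and 0.223% ± 0.0063 in parental PC3 (SD, n = 3 each). In bulk RNA, more cells in S phase and more of these transcripts per cell cannot be told apart. Without resistant PC3 library 1, 30 members were higher and 1 lower, and the calls of MCM3, POLA2, POLD1 and CCNE1 were lost.

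In resistant DU145 the same genes moved less and in both directions. There 15 members were higher, 4 were lower and 17 were not called, where 18.9% of all genes tested were higher and 20.7% lower. The median log2 change was 0.12, against 0.00 for all genes tested. Every resistant DU145 library lay above every parental one for 17 members and below for 4, where 25.1% and 26% of all genes did. The members supplied 0.395% ± 0.0047 of counts in resistant DU145 and 0.369% ± 0.0097 in parental DU145 (SD, n = 3 each). A gene that was not called is not shown to be unchanged.

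The DU145 result depends on the scale. On the TPM scale (transcripts per 1e6, from the deposited FPKM, tested with limma on log2(TPM + 1)) 9 members were higher and 14 lower, against backgrounds of 12.5% and 22.5%, and the member median was -0.02. Over 12194 well-expressed genes the median change of all genes was itself -0.17 on that scale, and the member median lay 0.15 above it. In the edgeR fit the member median lay 0.16 above the median of such genes. Mitochondrially encoded genes made up 7.08% ± 0.053 of counts in resistant DU145 and 4.11% ± 0.17 in parental DU145, and 3.50% ± 0.043 in resistant PC3 and 5.82% ± 0.20 in parental PC3 (SD, n = 3 each). With these genes removed before scaling to TPM, a choice made after seeing the data, DU145 again had 15 members higher and 4 lower (backgrounds 16.4% and 15.9%).

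**Figure D1:**
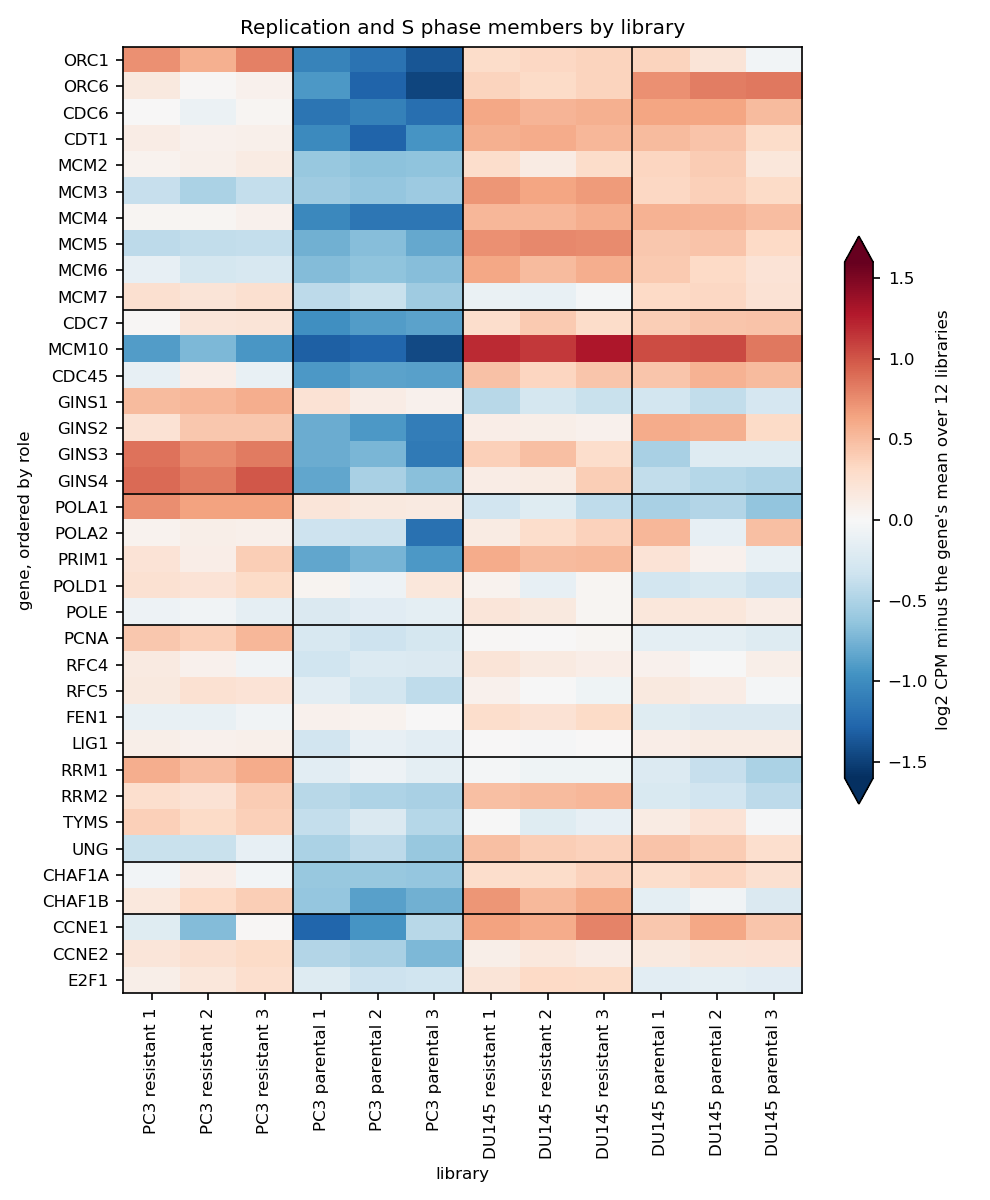
Log2 CPM of each of the 36 genes (rows, ordered by role) in each of the 12 libraries (columns), minus the gene's mean over the libraries. The parental PC3 columns are the bluest in most rows, while the parental and resistant DU145 columns differ less and in both directions.

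The changes of the lines were compared directly, as the PC3 change minus the DU145 change. It was higher in PC3 for 23 members, lower for 2 (FEN1 and MCM3) and not called for 11, where 22.1% of all genes tested were higher and 20% lower (42.1% in either direction). The median difference of the members was 0.56, against 0.02 for all genes tested. In all, 14 members were higher in both resistant sublines (6.54% of all genes tested): MCM3, MCM5, MCM6, MCM10, GINS3, GINS4, POLA1, PRIM1, POLD1, PCNA, RRM1, RRM2, CHAF1B and E2F1. A further 5 were called in opposite directions in the lines (12.1% of all genes tested), with ORC6, MCM7, GINS2 and TYMS higher in resistant PC3 and lower in resistant DU145, and FEN1 the other way round. The remaining members were called in PC3 alone, except POLE, which was called in neither line. Without resistant PC3 library 1 the differences of MCM6 (0.14, adjusted p = 0.163) and POLA1 (0.23, adjusted p = 0.0775) were no longer called and that of CHAF1B was (0.34, adjusted p = 0.0393). On the TPM scale 6 of the 14 genes higher in both sublines, MCM6, MCM10, POLA1, POLD1, PCNA and RRM1, were no longer called in DU145 (0.04 to 0.16).

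**Figure D2:**
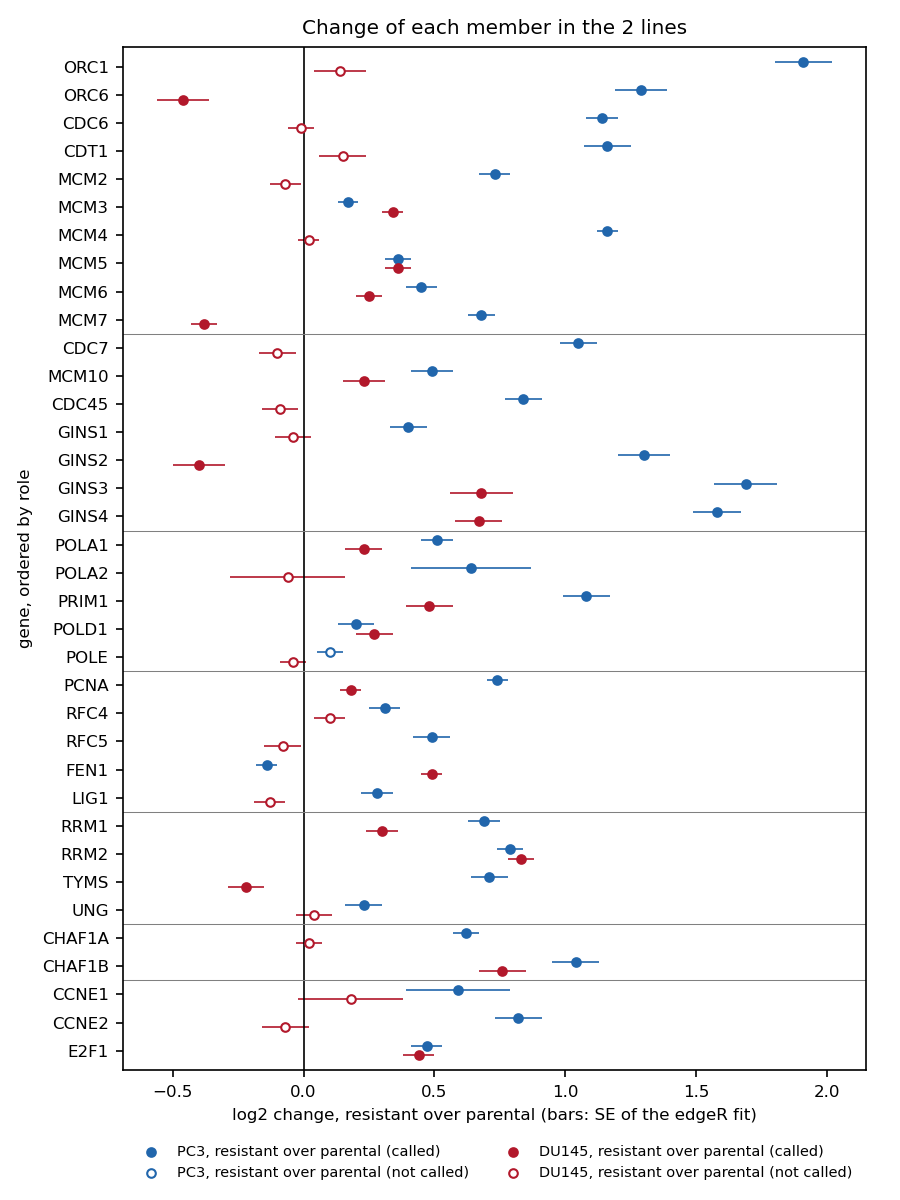
Log2 change of each gene, resistant over parental, in PC3 (blue) and DU145 (red), with bars of 1 SE from the edgeR fit and open circles where a gene was not called. The PC3 points lie right of 0 for every gene but FEN1, and the DU145 points lie on both sides of it, from -0.46 for ORC6 to 0.83 for RRM2.

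The promoters of these genes were searched for E2F site letters, since many of the members that moved together in PC3 are textbook E2F targets. RefSeq (GRCh38.p14) gave a 300-base promoter, from 250 bases before to 50 after the annotated start, for 32 of the 36 members. The letters TTTGGCGC, TTTCCCGC, TTTCGCGC or TTTGCCGC, on either strand, were found in 16 of the 32 (50%), against 3.33% of all 27305 promoters of that length and 4.92% of the 13299 that belong to tested genes. CCAAT, on either strand, was in 62.5% of member promoters, 35.7% of all and 36.3% of those of tested genes. TTTGAA, the letters of the CHR element of G2 and mitosis genes, was in 1 of the 32 member promoters (3.12%), against 15.4% and 10.4%. The 60-base windows below, chosen after seeing the data, show the match in capitals for a licensing factor (CDT1), MCM subunits that rose in both lines (MCM3 and MCM6), members called in opposite directions (GINS2 and TYMS) and the clamp (PCNA), each 5′ to 3′ on the gene's strand.
CDT1, chr16:88803728-88803787, plus strand: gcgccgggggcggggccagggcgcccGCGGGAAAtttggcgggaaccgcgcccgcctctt
MCM3, chr6:52284883-52284942, minus strand: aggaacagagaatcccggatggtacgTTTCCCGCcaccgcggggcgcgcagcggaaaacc
MCM6, chr2:135876562-135876621, minus strand: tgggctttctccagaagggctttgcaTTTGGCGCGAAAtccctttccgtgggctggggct
GINS2, chr16:85688952-85689011, minus strand: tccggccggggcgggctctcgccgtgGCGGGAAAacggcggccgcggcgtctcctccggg
TYMS, chr18:657588-657647, plus strand: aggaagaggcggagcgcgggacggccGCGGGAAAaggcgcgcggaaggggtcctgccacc
PCNA, chr20:5126648-5126707, minus strand: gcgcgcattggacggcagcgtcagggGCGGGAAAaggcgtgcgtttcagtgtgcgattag
In MCM6 a pair of overlapping matches on opposite strands, TTTGGCGC and TTTCGCGC read on the other strand, gives the longer run of capitals.

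Members with and without these letters did not part in the PC3 comparison. Of each set of 16, 15 were higher in resistant PC3, with median log2 changes of 0.66 with the letters and 0.65 without. Among tested genes that are no members, 40% of the 638 with the letters were higher in resistant PC3 (median 0.16), and 29.1% of the 12629 without them (median 0.00). In DU145, 6 of the 16 members with the letters and 7 of the 16 without were higher, with median log2 changes of -0.02 and 0.16. Lower were 18.8% of the members with the letters and 6.25% of those without. Of tested genes that are no members, 26.2% with the letters and 23.9% without were higher in DU145, and 31.8% and 27.8% lower. ORC1, ORC6, CDC45 and RRM2 were among the members without a match, and no match says only that these letters are not in this window.

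The licensing genes rose as a set in PC3, all 10 of them, with a median of 0.93. ORC1, the largest subunit of the origin recognition complex, had 49.1, 43.9 and 51.8 CPM in resistant PC3, against 14.1, 13.1 and 11.5 CPM in parental PC3. It was the largest rise of any member (log2 change 1.91 ± 0.11, SE; adjusted p = 7.3e-10). In resistant DU145 it stood at 36.4, 37.2 and 37.8 CPM, against 38.0, 34.2 and 28.6 CPM in parental DU145, overlapping groups with a log2 change of 0.14 ± 0.10 (adjusted p = 0.314). The PC3 change exceeded that of DU145 by 1.76 ± 0.15 log2 units. ORC6, the smallest subunit of the complex, differed in direction. It had 51.2, 46.3 and 48.2 CPM in resistant PC3, against 24.2, 18.8 and 16.6 CPM in parental PC3 (1.29 ± 0.10, adjusted p = 3.36e-08). In resistant DU145 it had 58.7, 56.7 and 58.4 CPM, against 76.2, 80.6 and 82.0 CPM in parental DU145 (-0.46 ± 0.10, adjusted p = 0.00133). Neither pair of groups overlapped.

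CDC6 and CDT1, which bring the helicase to the origin complex, rose in PC3 and were not called in DU145. CDC6 had 71.8, 66.5 and 72.9 CPM in resistant PC3, against 31.7, 33.5 and 30.8 CPM in parental PC3 (1.14 ± 0.06). The resistant DU145 libraries held 109.7, 104.0 and 106.0 CPM, against 110.5, 110.0 and 101.1 CPM in parental DU145 (-0.01 ± 0.05, adjusted p = 0.953). The PC3 groups stood well apart and the DU145 groups overlapped. CDT1, whose promoter window is shown above, had 29.2, 28.3 and 28.6 CPM in resistant PC3, against 13.3, 11.1 and 14.0 CPM in parental PC3 (1.16 ± 0.09). Its DU145 levels were 40.2, 40.8 and 39.1 CPM in the resistant libraries, against 38.4, 37.0 and 33.2 CPM in parental DU145 (0.15 ± 0.09, adjusted p = 0.218). These last groups did not overlap, but the change did not pass the test.

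The 6 subunits of the MCM ring, which work in equal numbers, moved by unequal amounts. In PC3 the log2 changes were 1.16 ± 0.04 for MCM4, 0.73 ± 0.06 for MCM2, 0.68 ± 0.05 for MCM7, 0.45 ± 0.06 for MCM6, 0.36 ± 0.05 for MCM5 and 0.17 ± 0.04 for MCM3, all called (adjusted p = 0.00499 for MCM3). In DU145 MCM5 (0.36 ± 0.05), MCM3 (0.34 ± 0.04) and MCM6 (0.25 ± 0.05) rose, MCM7 fell by 0.38 ± 0.05, and MCM4 (0.02 ± 0.04) and MCM2 (-0.07 ± 0.06) were not called. The MCM5 changes of the lines differed by 0.00 ± 0.07, and by 0.22 on the TPM scale (adjusted p = 0.0211).

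MCM4 had 303.7, 304.1 and 312.5 CPM in resistant PC3, against 145.2, 133.3 and 133.9 CPM in parental PC3 (adjusted p = 3.2e-12). In resistant DU145 it had 430.0, 430.0 and 444.6 CPM, against 437.1, 432.8 and 420.0 CPM in parental DU145. The PC3 levels differed by more than 2-fold and the DU145 groups overlapped. On the TPM scale MCM4 was called lower in resistant DU145 (-0.13, adjusted p = 0.0295), a shift smaller than that of all genes on that scale. MCM7 had 337.6, 327.7 and 336.9 CPM in resistant PC3, against 212.5, 220.6 and 190.9 CPM in parental PC3. The resistant DU145 libraries held 263.2, 260.3 and 277.3 CPM, against 352.2, 355.8 and 331.4 CPM in parental DU145 (adjusted p = 1.54e-05). The groups did not overlap in either line, and the gene shares part of its span with AP4M1 on the other strand.

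MCM2 had 128.8, 130.6 and 135.1 CPM in resistant PC3, against 81.1, 78.6 and 78.8 CPM in parental PC3, and 149.9, 135.8 and 151.6 CPM in resistant DU145, against 156.6, 163.2 and 139.7 CPM in parental DU145. MCM3 had 149.5, 135.6 and 147.9 CPM in resistant PC3, against 130.5, 126.0 and 128.9 CPM in parental PC3, and 316.1, 298.4 and 308.3 CPM in resistant DU145, against 242.3, 250.8 and 238.4 CPM in parental DU145. MCM2 thus moved in PC3 without overlap and overlapped in DU145, while MCM3 moved more in DU145. The difference between the MCM3 changes was -0.17 ± 0.06 (adjusted p = 0.0401), a call lost in 7 of the 12 fits that each left out 1 library (-0.12 to -0.17) and turned to 0.06 on the TPM scale. The PC3 call of MCM3 was lost without resistant PC3 library 1 (0.13, adjusted p = 0.0504) and on TPM without mitochondrial genes (0.10).

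MCM5 had 79.1, 80.2 and 81.2 CPM in resistant PC3, against 62.0, 65.6 and 60.0 CPM in parental PC3, and 175.8, 180.6 and 179.1 CPM in resistant DU145, against 142.1, 144.5 and 131.3 CPM in parental DU145. MCM6 had 106.1, 95.2 and 97.3 CPM in resistant PC3, against 71.8, 74.0 and 72.3 CPM in parental PC3, and 177.9, 164.9 and 173.7 CPM in resistant DU145, against 155.1, 144.5 and 135.3 CPM in parental DU145. Both genes were above the parental range in every resistant library. The difference between the MCM6 changes, 0.21 ± 0.08 (adjusted p = 0.0461), was lost in 10 of the 12 such fits (0.14 to 0.22). Only 5 of the 21 alternatives run kept this call, which was also lost with a minimum of 5 CPM (0.12) and on FPKM (0.17).

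**Figure D3:**
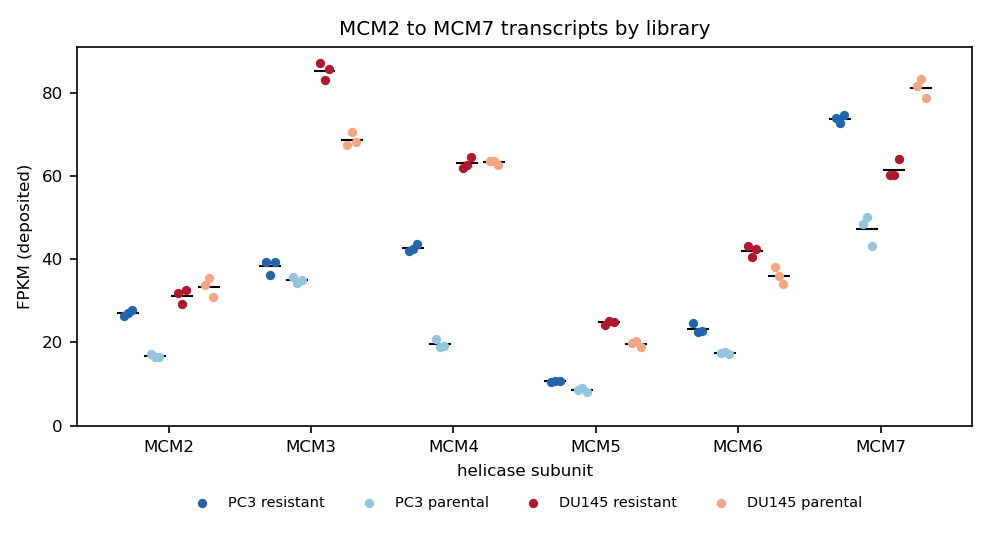
Deposited FPKM (fragments per kilobase of gene, scaled by library size) of the 6 MCM ring subunits in each library, with points for libraries, bars for group means and colours for the 4 groups, on an axis that starts at 0. MCM4 and MCM7 show the widest gap between resistant and parental PC3, and MCM7 is the subunit whose resistant DU145 points lie below the parental ones.

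Per length, the ring subunits were far from equal in transcript level. In resistant PC3 the FPKM levels ran from 10.7 ± 0.201 for MCM5 to 73.8 ± 0.966 for MCM7, and in parental PC3 from 8.56 ± 0.403 to 47.2 ± 3.61 for the same genes. In resistant DU145 they ran from 24.8 ± 0.478 for MCM5 to 85.2 ± 2.02 for MCM3, and in parental DU145 from 19.7 ± 0.809 for MCM5 to 81.1 ± 2.34 for MCM7 (SD, n = 3 each). MCM5 was the lowest subunit in all 4 groups. MCM3, MCM4 and MCM7 were the 3 highest in all 4.

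Helicase activation genes also rose as a set in PC3, all 7, with a median of 1.05, against 3 higher, 1 lower and 3 not called in DU145. The GINS complex, which joins CDC45 to make the ring an active helicase, has 4 subunits, and their changes spread widely. GINS3 had 34.5, 31.8 and 33.7 CPM in resistant PC3, against 10.9, 11.4 and 8.60 CPM in parental PC3 (1.69 ± 0.12, adjusted p = 9.41e-09). Its DU145 levels were 24.5, 26.3 and 22.9 CPM in the resistant libraries, against 13.2, 16.4 and 16.4 CPM in parental DU145 (0.68 ± 0.12, adjusted p = 0.000195). GINS4 had 82.1, 78.3 and 87.3 CPM in resistant PC3, against 24.6, 30.7 and 27.8 CPM in parental PC3 (1.58 ± 0.09), and 47.7, 48.1 and 57.7 CPM in resistant DU145, against 33.4, 32.1 and 31.1 CPM in parental DU145 (0.67 ± 0.09). These 2 subunits rose in both lines, and by more in PC3 (difference 1.01 ± 0.17 for GINS3 and 0.91 ± 0.12 for GINS4).

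GINS2 went in opposite directions. It had 34.3, 39.6 and 39.5 CPM in resistant PC3, against 16.9, 15.5 and 13.6 CPM in parental PC3 (1.3 ± 0.10). In resistant DU145 it had 31.5, 31.2 and 30.8 CPM, against 44.1, 43.5 and 36.2 CPM in parental DU145 (-0.40 ± 0.10, adjusted p = 0.00316). The gene lies opposite GSE1, and the counting strand is not given in the sources used here. GINS1 rose in PC3 (0.40 ± 0.07) and was not called in DU145 (-0.04 ± 0.07).

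CDC7, the kinase that phosphorylates the MCM ring, had 44.9, 50.8 and 51.0 CPM in resistant PC3, against 22.4, 23.9 and 24.6 CPM in parental PC3 (1.05 ± 0.07). The resistant DU145 libraries held 53.9, 59.3 and 54.4 CPM, against 58.4, 60.5 and 61.0 CPM in parental DU145 (-0.10 ± 0.07, adjusted p = 0.266). CDC45, the partner of GINS, had 41.1, 48.7 and 41.7 CPM in resistant PC3, against 23.8, 25.0 and 24.8 CPM in parental PC3 (0.84 ± 0.07), and 62.7, 57.5 and 61.2 CPM in resistant DU145, against 61.7, 66.5 and 64.4 CPM in parental DU145 (-0.09 ± 0.07). Both genes were raised without overlap in PC3 and overlapped in DU145. MCM10, which helps the ring to start unwinding, rose in PC3 (0.49 ± 0.08) and in DU145 (0.23 ± 0.08, adjusted p = 0.0304). Its DU145 call was lost without parental library 3 or without resistant library 1 or 3 (log2 changes of 0.16, 0.23 and 0.18).

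Among the 5 polymerase members the primase moved most in each line. PRIM1, the catalytic subunit that lays down RNA primers, had 39.9, 37.0 and 45.4 CPM in resistant PC3, against 19.4, 20.5 and 18.2 CPM in parental PC3 (1.08 ± 0.09). In DU145 the change was 0.48 ± 0.09 (adjusted p = 0.000577), and PRIM1 overlaps the abundant gene NACA on the same strand. POLA1, the catalytic subunit of polymerase alpha, rose by 0.51 ± 0.06 in PC3 and 0.23 ± 0.07 in DU145, the DU145 call being lost without resistant DU145 library 2 (0.17, adjusted p = 0.0549). The difference, 0.27, was lost in 4 of the 12 fits that left out 1 library (0.22 to 0.26). POLD1 of the lagging-strand polymerase delta rose by 0.20 ± 0.07 in PC3 and 0.27 ± 0.07 in DU145. Its PC3 call was lost without parental library 1 or 2 or resistant library 1 or 3 (0.14 to 0.20). The same call was lost with library totals only (0.16), a minimum of 5 CPM (0.15), on FPKM (0.16) and on TPM without mitochondrial genes (0.13). POLE of the leading-strand polymerase epsilon was called in neither line, with log2 changes of 0.10 ± 0.05 in PC3 (adjusted p = 0.11) and -0.04 ± 0.05 in DU145.

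POLA2, the regulatory subunit of polymerase alpha, was the least reproducible member. It had 42.6, 43.9 and 43.3 CPM in resistant PC3, against 32.8, 32.3 and 18.0 CPM in parental PC3, and 44.9, 49.8 and 53.0 CPM in resistant DU145, against 59.5, 37.4 and 57.2 CPM in parental DU145. Parental PC3 library 3 and parental DU145 library 2 stood low. The PC3 change, 0.64 ± 0.23 (adjusted p = 0.0416), was no longer called without any one of the 3 resistant PC3 or the 3 resistant DU145 libraries or without parental PC3 library 3, where it was 0.41. Its call was also lost with library totals only (0.60), with no filter on low counts (0.63), on TPM without mitochondrial genes (0.60) and with the 6 PC3 libraries alone (0.63). In DU145 the change was -0.06 ± 0.22.

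PCNA, the sliding clamp, had 164.6, 158.3 and 175.0 CPM in resistant PC3, against 102.1, 96.3 and 99.9 CPM in parental PC3 (0.74 ± 0.04, adjusted p = 1.4e-09). Its DU145 levels were 122.7, 121.7 and 123.7 CPM in the resistant libraries, against 109.0, 109.3 and 105.7 CPM in parental DU145 (0.18 ± 0.04, adjusted p = 0.00314). The libraries of each group lay close together and no groups overlapped, but on the TPM scale the DU145 call was lost (0.04). FEN1, the nuclease that trims the flaps of Okazaki fragments, was the exception of the set. It had 103.8, 104.2 and 108.5 CPM in resistant PC3, against 117.8, 117.1 and 113.0 CPM in parental PC3 (-0.14 ± 0.04, adjusted p = 0.0127), and 136.5, 132.2 and 139.5 CPM in resistant DU145, against 98.5, 95.8 and 96.1 CPM in parental DU145 (0.49 ± 0.04, adjusted p = 9.13e-08). It lies within FADS2 on the same strand, so reads of the 2 genes may be mixed, and on the TPM scale its PC3 call was lost (-0.05). The clamp loader subunits RFC4 (0.31 ± 0.06) and RFC5 (0.49 ± 0.07) and the ligase LIG1 (0.28 ± 0.06), which seals Okazaki fragments, rose in PC3, and none of these 3 was called in DU145 (-0.13 to 0.10). RFC4 overlaps EIF4A2 on the other strand.

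Of the genes that supply nucleotides, RRM2, the small subunit of ribonucleotide reductase made in S phase, rose in both lines by a similar size. It had 270.8, 263.4 and 297.8 CPM in resistant PC3, against 165.0, 159.7 and 157.4 CPM in parental PC3 (0.79 ± 0.05), and 314.6, 318.3 and 326.2 CPM in resistant DU145, against 189.9, 182.2 and 168.0 CPM in parental DU145 (0.83 ± 0.05, the largest rise of a member in DU145). The difference was -0.04 ± 0.07 (adjusted p = 0.723). RRM1, the large subunit, rose by 0.69 ± 0.06 in PC3 and 0.30 ± 0.06 in DU145. TYMS, which makes thymidylate and is the target of fluorouracil, had 281.0, 268.0 and 282.7 CPM in resistant PC3, against 165.8, 184.4 and 157.7 CPM in parental PC3 (0.71 ± 0.07). In resistant DU145 it had 216.1, 189.9 and 196.9 CPM, against 236.5, 251.7 and 213.2 CPM in parental DU145 (-0.22 ± 0.07, adjusted p = 0.0166). The DU145 groups overlapped, and that call was lost without parental DU145 library 1 or 2 or without resistant DU145 library 2 or 3 (-0.16 to -0.21). TYMS overlaps ENOSF1 on the other strand. UNG, which removes uracil from DNA, rose by 0.23 ± 0.07 in PC3 and was not called in DU145 (0.04 ± 0.07). Its PC3 call was lost without parental or resistant PC3 library 3 (0.19 and 0.15) and on TPM without mitochondrial genes (0.16).

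CHAF1B, a subunit of the chromatin assembly factor CAF-1 that places histones behind the fork, had 39.8, 44.1 and 46.6 CPM in resistant PC3, against 23.0, 19.4 and 20.9 CPM in parental PC3 (1.04 ± 0.09). The resistant DU145 libraries held 57.8, 50.6 and 53.9 CPM, against 31.9, 34.1 and 30.1 CPM in parental DU145 (0.76 ± 0.09). Its groups did not overlap in either line, but the gene overlaps MORC3 on the same strand, so reads of these genes may be mixed. CHAF1A, the large subunit, rose in PC3 (0.62 ± 0.05) and was not called in DU145 (0.02 ± 0.05), a difference of 0.60 ± 0.08.

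E2F1, the transcription factor that drives many of these genes and its own promoter, rose by nearly the same amount in both lines, 0.47 ± 0.06 in PC3 and 0.44 ± 0.06 in DU145 (difference 0.03 ± 0.09, adjusted p = 0.873), although on the TPM scale the difference was called (0.25, adjusted p = 0.0345). The cyclins E, partners of CDK2 at the start of S phase, were called in PC3 alone. CCNE2 rose by 0.82 ± 0.09 in PC3 and changed by -0.07 ± 0.09 in DU145, and CCNE1 rose by 0.59 ± 0.20 in PC3 and changed by 0.18 ± 0.20 in DU145. CCNE2 overlaps INTS8 and NDUFAF6 on the other strand. CCNE1 had 9.25, 6.53 and 10.7 CPM in resistant PC3, against 4.38, 5.51 and 7.80 CPM in parental PC3, groups that overlapped. Its PC3 call (adjusted p = 0.0277) was lost without resistant library 1 or 3 or parental library 1 or 2 (0.41 to 0.54). The same call was lost on FPKM (0.41), on TPM without mitochondrial genes (0.49) and with the 6 PC3 libraries alone (0.57).

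The parental lines differed strongly before selection. In parental PC3, 30 members were lower than in parental DU145, 5 were higher and 1 (E2F1, -0.12 ± 0.06) was not called, where 29.5% of all genes tested were lower and 30.9% higher, and the member median was -0.82. All 10 licensing genes were lower, from -0.74 ± 0.05 for MCM7 to -2.00 ± 0.10 for ORC6. MCM10 was the furthest apart of all members, at -2.32 ± 0.08. The 5 that were higher in parental PC3 were POLA1 (0.71 ± 0.07), GINS1 (0.46 ± 0.07), POLD1 (0.34 ± 0.07), FEN1 (0.26 ± 0.04) and RRM1 (0.22 ± 0.06). On the TPM scale the RRM1 call was lost (0.09, adjusted p = 0.242) and E2F1 was called lower (-0.25, adjusted p = 0.0043). Of the lower members, GINS4 lost its call in 5 of the 12 fits that left out 1 library (-0.24 to -0.14), PCNA in 4 (-0.12 to -0.10) and RRM2 in 1 (-0.12).

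Between the resistant sublines the members stood closer. In resistant PC3, 12 members were higher than in resistant DU145, 19 were lower and 5 were not called (30.6% and 29.1% of all genes tested), and the member median was -0.19. This comparison shares its libraries with those above. ORC1 was 1.38 ± 0.11 log2 units lower in parental PC3 than in parental DU145 and 0.38 ± 0.10 higher in resistant PC3 than in resistant DU145. GINS2 stood at -1.42 ± 0.10 between the parental lines and 0.28 ± 0.10 between the resistant ones, and MCM7 at -0.74 ± 0.05 and 0.32 ± 0.05. The GINS2 call between the resistant sublines was lost in 5 fits that left out 1 library (0.24 to 0.26) and on TPM without mitochondrial genes (0.13, adjusted p = 0.305), where that of ORC1 was lost too (0.23, adjusted p = 0.0892). This GINS2 call was also lost with library totals only (0.22), with a minimum of 5 CPM (0.19) and on FPKM (0.20). Without resistant PC3 library 1 the calls of MCM2 (-0.16, adjusted p = 0.0531) and CDC7 (-0.16, adjusted p = 0.0604) were lost and RFC4 was called. MCM10 (-2.06 ± 0.08), MCM5 (-1.16 ± 0.05) and MCM3 (-1.09 ± 0.04) stayed lower in resistant PC3.

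Per length, PCNA and TYMS were the most abundant members in PC3. In resistant PC3 their FPKM levels were 114.5 ± 5.88 and 110.9 ± 2.90, and in parental PC3 70.5 ± 2.24 and 69.6 ± 5.68, neighbours that lay within their spread. In resistant DU145 PCNA (88.3 ± 0.802), MCM3 (85.2 ± 2.02) and TYMS (83.8 ± 5.18) led, and in parental DU145 TYMS (99.1 ± 7.51), MCM7 (81.1 ± 2.34) and PCNA (79.1 ± 0.782; SD, n = 3 each), with the MCM7 and PCNA levels within their spread. The lowest FPKM levels were those of MCM10 (3.42 ± 0.290) and CCNE1 (3.48 ± 0.836) in resistant PC3, GINS3 (2.00 ± 0.296) and CCNE1 (2.38 ± 0.695) in parental PC3, and POLA1 in resistant DU145 (2.75 ± 0.213) and parental DU145 (2.38 ± 0.118).

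Other genes of the pathway, 75 that are no members, were counted for comparison, and one gene per list and direction is named by the size of its change. In PC3 55 were higher, 8 lower and 12 not called, and in DU145 26 were higher, 24 lower and 25 not called, beside the shares of all genes tested given above (22.4% higher and 21.6% lower in PC3, 18.9% and 20.7% in DU145). Of 11 other helicase activation and fork genes 10 were higher in PC3, led by CLSPN, the checkpoint mediator claspin (1.55 ± 0.10), and in DU145 4 were higher and 5 lower, led by TIPIN of the fork protection complex (0.87 ± 0.10) and MTBP, which acts in origin firing (-0.91 ± 0.09). Of 12 other clamp loader, RPA and Okazaki genes 9 were higher in PC3, led by RPA2, a subunit of the single-strand binding protein (1.28 ± 0.05). In DU145 2 were higher and 3 lower, led by the loader subunit RFC3 (1.25 ± 0.08) and by DSCC1 of the alternative loader (-0.58 ± 0.11).

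Of 8 other licensing genes 5 were higher and 1 lower in PC3, led by ORC5 (0.91 ± 0.09) and ORC2 (-0.26 ± 0.06), subunits of the origin recognition complex. In DU145 2 were higher and 3 lower, led by GMNN, the CDT1 inhibitor geminin (0.55 ± 0.09), and ORC4 (-0.36 ± 0.08). Of 7 other polymerase subunits 5 were higher and 1 lower in each line. In PC3 POLE4 (1.02 ± 0.10) and POLD4 (-1.11 ± 0.08) led, and in DU145 POLE2 (0.63 ± 0.08) and POLD3 (-0.34 ± 0.06). All 8 other chromatin duplication genes were higher in PC3, led by UHRF1, which guides maintenance methylation to new DNA (1.58 ± 0.05). In DU145 4 were higher and 2 lower, led by the histone mRNA binding protein SLBP (0.62 ± 0.07) and the histone chaperone ASF1B (-0.28 ± 0.06). Of 8 other nucleotide genes 5 were higher and 2 lower in PC3, led by the CTP synthase CTPS1 (0.97 ± 0.05) and SAMHD1, which degrades deoxynucleotides (-0.33 ± 0.07). In DU145 3 were higher and 1 lower, led by SAMHD1 (0.40 ± 0.07) and the reductase subunit RRM2B (-0.72 ± 0.06).

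Of 21 other E2F and RB pathway genes 13 were higher and 4 lower in PC3, and 6 were higher and 9 lower in DU145. CDKN1A, the inhibitor p21 of cyclin-dependent kinases, was the largest change of this list in both lines and in opposite directions. It averaged 11.8 ± 0.183 CPM in resistant PC3 and 32.9 ± 0.972 CPM in parental PC3 (SD, n = 3 each; -1.48 ± 0.11), and 78.4 ± 13.2 CPM in resistant DU145 and 33.4 ± 3.09 CPM in parental DU145 (1.23 ± 0.10), a difference of -2.71 ± 0.15. The phosphatase CDC25A, which activates CDK2, was the largest rise of the list in PC3 (1.21 ± 0.07), and the E2F partner TFDP2 the largest fall in DU145 (-0.82 ± 0.06). Genes of G2 and mitosis rose too, 12 of 12 in PC3, with CDC20 first (1.53 ± 0.07), and 9 of 12 in DU145, with AURKA first (1.16 ± 0.07) and CENPF lower (-0.36 ± 0.07). Of all genes tested, 22.4% were higher in PC3 and 18.9% in DU145.

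The members lie on 17 chromosomes, and each was set beside its 10 nearest tested genes on either side, a description chosen after seeing the data. In PC3 all 36 members lay above the median change of their neighbours, which ranged from -0.80 to 0.98, and in DU145 26 of 36 did, with neighbour medians from -0.35 to 0.30. The neighbour median in PC3 reached 0.5 for 4 members. It was 0.98 around GINS2, 0.62 around CCNE2, 0.55 around GINS3 and 0.53 around CDC7, and of the 20 neighbours 10, 12, 8 and 8 were called higher and 1, 3, 1 and 1 lower, in the same order of genes. ORC6 and CDT1, which share chromosome 16 with GINS2 and GINS3, had neighbour medians of 0.00 and -0.07, and MCM4 one of 0.06. The neighbours spanned 14.86 megabases around ORC6 and 10.67 around MCM4, against 0.54 around CDT1, 1.96 around GINS2 and 4.26 around GINS3. The neighbour medians of GINS4 (0.44), PRIM1 (0.42), ORC1 (0.40), CCNE1 (0.35) and MCM5 (0.33, beside its own change of 0.36) were above 0.3. The lowest were those of GINS1 (-0.80), MCM3 (-0.72), POLA2 (-0.53), RFC4 (-0.50), MCM10 (-0.40), POLD1 (-0.40) and FEN1 (-0.37). The part of gene copy number in these changes was not tested.

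**Figure D4:**
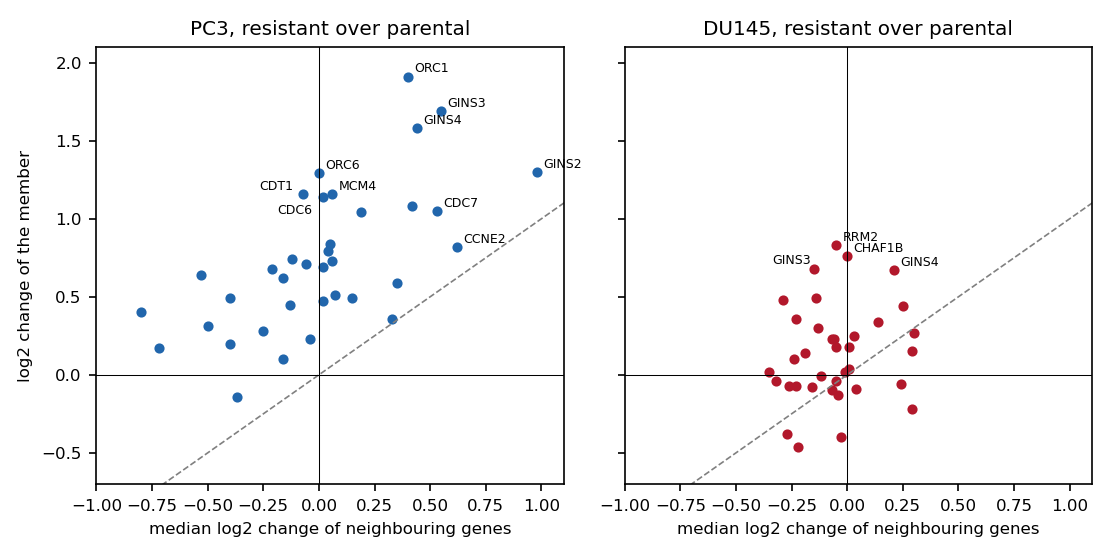
Log2 change of each member (vertical axis) against the median log2 change of its 20 nearest tested genes (horizontal axis), in PC3 (left) and DU145 (right), with a dashed line where the values are equal. All 36 points lie above the line in PC3 and 26 do in DU145, and GINS2 has the highest neighbour median, 0.98.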

How the data were processed

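RNA with poly(A) tails was fragmented and sequenced as paired ends after second-strand marking with dUTP, per the labels' protocols. Tools named in the submitters' processing notes, in no stated order, are HISAT2 2.0.4, cutadapt 1.9, edgeR, DESeq2 and StringTie 1.3.4d, and the build named is hg18. The coordinates in the tables are those of GRCh38 instead: of 37316 genes matched to GENCODE v29, 37308 overlapped and 23611 had the same start and end. The sources used here give neither the counting program nor its strand setting, so overlapping genes are uncertain.

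Each deposited table gives a read count, as a whole number, and the FPKM of 38611 genes, and 71 genes had no FPKM. Filtering with filterByExpr left 24128 genes, and libraries were scaled with TMM. One edgeR 4.0.16 model (R 4.3.3) held a mean for each of the 4 groups, with 8 residual degrees of freedom. Contrasts were tested with its two-sided robust quasi-likelihood F test with Benjamini-Hochberg adjustment. The fit was tested on simulated counts over 24128 genes, with equal means in the 4 groups but for genes changed in resistant DU145. In the DU145 comparison it called 64 of 100 genes changed 1.4-fold and 90 of 100 changed 2-fold, and 4.94% of its calls were false. All changed genes had a mean of at least 5 CPM. The real DU145 comparison called 9554 genes, so these shares may not hold there. The SE of a log2 change is its size over the square root of F. CPM are counts over the TMM-scaled total. TPM was computed from the deposited FPKM and tested, like log2(FPKM + 1), with limma 3.58.1. DESeq2 1.42.0 was a further alternative, and in the same simulation 22.2% of its calls were false.

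The 36 members and all lists were chosen with earlier results of these data known. Library values are given for members called at 0.5 log2 units or more within a line (the 12 largest), for the 12 largest called differences, for MCM2 to MCM7 and for PCNA. FEN1, POLA2 and CCNE1 were added after their values were seen. Of the other lists the largest change in each direction is named, where up to 3 had been allowed.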

Additional observations from a re-analysis of the deposited data

Results flagged for a closer look

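A result is listed here because the change in PC3 and the change in DU145 differed by edgeR's test of the difference itself, given as the PC3 change minus the DU145 change in log2 units. This held for 25 of the 36 members, where 42.1% of all genes tested differed. It also held for 18 of the 26 other genes named. Those were picked for the size of their change within a line, which favours a difference, so their share cannot be set against that of all genes.

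Among licensing genes the difference was 1.76 for ORC1, 1.75 for ORC6, 1.15 for CDC6, 1.02 for CDT1, 1.14 for MCM4, 1.06 for MCM7, 0.80 for MCM2, 0.21 for MCM6 and -0.17 for MCM3. Among helicase activation genes it was 1.70 for GINS2, 1.15 for CDC7, 1.01 for GINS3, 0.92 for CDC45, 0.91 for GINS4 and 0.44 for GINS1. Among the polymerases it was 0.60 for PRIM1 and 0.27 for POLA1. The clamp and Okazaki genes gave 0.57 for RFC5, 0.55 for PCNA, 0.41 for LIG1 and -0.63 for FEN1. The remaining members were TYMS at 0.93, CCNE2 at 0.89, CHAF1A at 0.60 and RRM1 at 0.39.

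The other genes with a higher change in PC3 were UHRF1 (1.64), DSCC1 (1.51), CDC25A (1.42), MTBP (1.4), CLSPN (1.33), CDC20 (1.22), RPA2 (1.20), ASF1B (0.95), CENPF (0.91), ORC5 (0.91), POLD3 (0.86), POLE4 (0.67), CTPS1 (0.64), TFDP2 (0.47) and RRM2B (0.43). CDKN1A (-2.71), POLD4 (-1.46) and SAMHD1 (-0.73) had a lower one.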

How the results depend on the processing

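Under the alternatives run, all members' medians kept their direction except that of DU145. The DU145 median was 0.16 with a minimum mean of 5 CPM, 0.09 on log2(FPKM + 1) and -0.02 on log2(TPM + 1), where 9 members were higher and 14 lower. The PC3 median was 0.65 with library totals only, 0.63 with a minimum of 5 CPM and on FPKM, 0.77 on TPM, where 0 members were lower, and 0.61 on TPM without mitochondrial genes, an alternative chosen after seeing the data. The median difference between the lines was 0.47 with the 5 CPM minimum and on TPM without mitochondrial genes, 0.52 on FPKM and 0.78 on TPM, where 1 member was lower. Resistant PC3 against resistant DU145 had a median of -0.25 with library totals, -0.28 with the minimum, -0.23 on FPKM, -0.09 on TPM with 12 lower, and -0.33 without mitochondrial genes with 7 higher. On TPM, MCM4 in DU145 (-0.13), the difference for MCM3 (0.06) and CTPS1 between the parental lines (-0.01) changed sign. The median of all genes moved as well on these scales: measured from it, the member median lay between 0.63 and 0.66 in PC3 and between 0.14 and 0.17 in DU145 under every setting that kept all 12 libraries or the 6 of the line.

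Leaving out each of the 12 libraries in turn gave PC3 medians from 0.66 to 0.73 (30 to 34 members higher), DU145 medians from 0.06 to 0.13 (14 to 15 higher, 3 to 4 lower), a median difference from 0.51 to 0.59 (1 to 2 lower), a median between the parental lines from -0.85 to -0.68, and between the resistant ones from -0.23 to -0.18. DESeq2 and RLE factors kept every count of members within 1.5 times. In all alternatives 29 of 35 calls in PC3, 12 of 19 in DU145, 22 of 25 differences, 31 of 35 calls between the parental lines and 19 of 31 between the resistant ones were kept. The POLA1 difference was also lost with a minimum of 5 CPM (0.19) and on TPM without mitochondrial genes (0.18).

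No pairing by replicate number was visible. Deviations of same-numbered libraries correlated at -0.102, 0.037 and -0.089 in PC3 and -0.022, 0 and -0.011 in DU145. Differently numbered libraries gave -0.065 to 0.158 in PC3 and -0.069 to 0.081 in DU145. With 3 libraries per group this check cannot show that the samples are unpaired. With a replicate block, PC3 had 34 members higher and 1 lower, DU145 15 and 4, and the difference 22 and 2.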

Other observations

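Replication-dependent histone genes, whose transcripts are made in S phase and mostly lack poly(A) tails, did not move with the members. By edgeR's quasi-likelihood test, 4 of 8 were lower in resistant PC3 against parental PC3 (H2AC6, H2BC5, H2BC12 and H4C8, from -1.26 to -0.91). In resistant DU145 against parental DU145, 3 of 8 were lower (H2AC6, H2BC12 and H4C8, from -1.59 to -0.39). The shares of all genes tested that were lower were 21.6% in PC3 and 20.7% in DU145. The other histone genes were not called. Among these H2BC5 in DU145 stood at 0.45 ± 0.20 log2 units (unadjusted p = 0.0371, adjusted p = 0.0846), and no other reached an unadjusted p under 0.05 with a higher level. These libraries were selected for poly(A) RNA, so histone levels here count the polyadenylated part alone. Transcripts of RB1, named after its values were seen, were higher in both sublines, by 0.33 ± 0.08 log2 units in resistant PC3 and 0.70 ± 0.08 in resistant DU145. These are RNA levels, and whether either line makes a working RB1 protein was not tested.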
